A study of Homo sapiens with 4 samples.

Results

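The CCN genes and the YAP/TAZ pathway were followed in cells labelled MDA-MB-231, a long-established human triple negative breast cancer cell line. The libraries came from cells expressing a control shRNA or a KDM1A shRNA. The 10 genes were taken by symbol from the deposited count tables, which list 23228 genes: the ligands CYR61, CTGF and NOV (now CCN1, CCN2 and CCN3), the target genes ANKRD1 and AMOTL2, the coactivators YAP1 and WWTR1, the DNA-binding partner TEAD1, and the kinases LATS1 and LATS2. All 10 were found in every library and all 10 passed the filter on low counts, as did 14012 genes in all. The cells of both groups had been sorted as cancer stem cells by the ALDEFLUOR kit, which reports aldehyde dehydrogenase activity, grown in MammoCult medium and transduced with lentivirus for stable shRNA expression. Each group had 2 libraries. Nothing in the labels says that these came from separate cultures, so the p-values reflect library-to-library spread that may be purely technical. The labels give 1 KDM1A shRNA and no rescue, so the loss of KDM1A and other effects of that vector cannot be told apart.

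The Hippo pathway is a kinase cascade that holds back 2 transcriptional coactivators, YAP (encoded by YAP1) and TAZ (encoded by WWTR1). LATS1 and LATS2 phosphorylate them, which keeps them in the cytoplasm or marks them for degradation, and when the cascade is weak they enter the nucleus and act with TEAD proteins on genes such as CTGF, CYR61 and ANKRD1. CCN proteins are secreted matricellular proteins that bind integrins and growth factors. In triple negative breast cancer, high YAP/TAZ activity is known to go with mesenchymal and stem-like traits. The pathway acts largely through phosphorylation and location of proteins, which read counts do not measure.

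Reads assigned to genes ranged from 23902900 to 26923678 per library. KDM1A, the demethylase targeted by the shRNA, stood at 174 and 167 CPM in control libraries 1 and 2 and at 23.4 and 25.2 CPM in KDM1A shRNA libraries 1 and 2 (log2 change -2.81, SE 0.05, edgeR adjusted p = 2.2e-14). CPM here are read counts relative to library size (edgeR, TMM scaling), and every change is given as KDM1A shRNA relative to control. Markers of the line moved with the groups. CDKN2A, which MDA-MB-231 is known to have lost, gave 323 and 329 reads in the 2 controls but 13 and 19 in the KDM1A shRNA libraries, 4.99% of the control level. MTAP, its neighbour in the lost region of chromosome 9, kept 5.65% of its control level, and CDKN2B reads went from 27 and 31 to 0 and 1. Of 6 genes typical of the line, VIM, AXL, CAV1, CAV2 and S100A4 rose and CD44 fell, with a median log2 fold change of 0.64, and their summed level was 3838 to 3877 CPM in the controls and 5088 to 5156 CPM in the KDM1A shRNA libraries. Of 6 genes known to be low in the line, ESR1 and PGR had at most 9 reads in any library, while ERBB2, CDH1, EPCAM and GATA3 were present and rose, by 0.36 to 0.41 on the log2 scale. Fibroblast markers summed to 141 and 145 CPM in the controls and 101 and 109 CPM in the KDM1A shRNA libraries, but the sum is mostly DCN, the 1 marker of the 4 tested that fell (-1.16), while LUM (2.90), PDGFRB (1.47) and COL1A1 (0.86) rose, and COL1A2 and COL3A1 had 7 reads or fewer. Endothelial markers summed to 93.9 and 101 CPM against 53.6 and 55.7 CPM, mostly KDR, and the leukocyte gene PTPRC had at most 4 reads. The reads of lost genes go against the cell line label of the control libraries, and whether these hold that line alone was not tested. All 4 libraries have such reads, with 15 and 14 MTAP reads in KDM1A shRNA libraries 1 and 2, so no fit without such a library can be made. Whether the KDM1A shRNA libraries hold that line alone was not tested either. The knockdown and a difference in the cells cannot be told apart here, and the part of these differences in the results below was not tested.

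Among the 10 genes, NOV rose 6.30-fold, CTGF 1.44-fold and ANKRD1 1.40-fold, and CYR61 fell to 77.6% of its control level. YAP1, TEAD1 and AMOTL2 were slightly higher, LATS2 was lower, and WWTR1 and LATS1 did not pass the test. In all, 6 genes were higher and 2 lower at an edgeR adjusted p under 0.05, or 4 and 1 without KDM1A shRNA library 1 and 4 and 2 without library 2. The main counts stand beside 27.3% of all tested genes called higher and 28.8% called lower, 56.1% in total, so a call by itself is common in these libraries. Control and KDM1A shRNA libraries were fully separated for 8 of the 10 genes, and for 77.7% of all genes tested. The median log2 fold change of the 10 was 0.15, against -0.0047 over all genes tested, and their median absolute change was 0.22 against 0.24. NOV alone changed by 2-fold or more, which 3.07% of tested genes did upward and 8.54% downward. In bulk RNA, fewer cells of a type and less RNA per cell cannot be told apart.

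**Figure D1:**
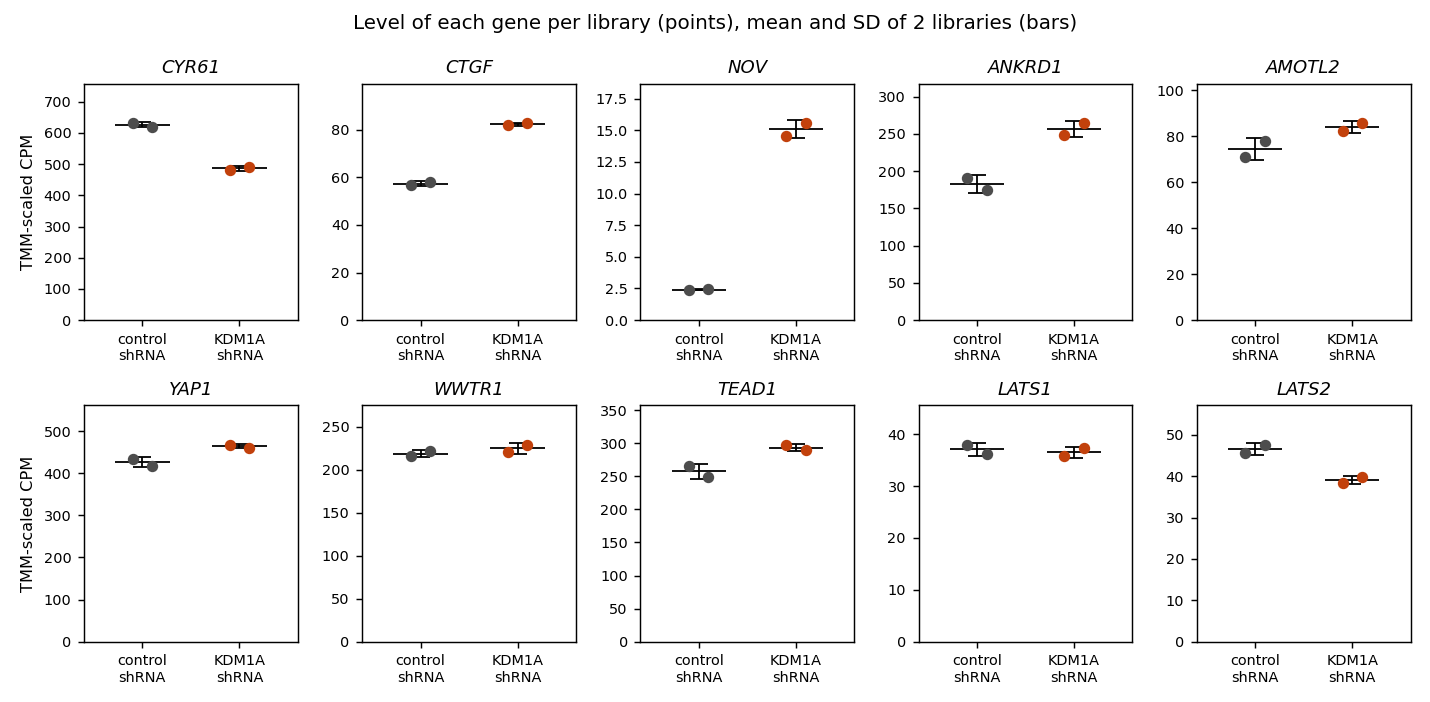
Level of each of the 10 genes in TMM-scaled CPM (vertical axes, each from 0) in 2 control shRNA and 2 KDM1A shRNA libraries; points are libraries, and bars show the mean and SD. NOV moved from 2.39 to 15.1 CPM, CYR61 moved down from 626 to 486 CPM, and the libraries of the 2 groups overlap for WWTR1 and LATS1.

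The 3 CCN ligands moved apart from each other. CYR61, on chromosome 1 (86046444 to 86050272, plus strand, GRCh37), encodes an immediate-early matricellular protein and was the most abundant of the 10 per length. Control libraries 1 and 2 held 16923 and 15056 CYR61 reads, and KDM1A shRNA libraries 1 and 2 held 11494 and 12703. On the CPM scale it fell from 626 ± 7.97 to 486 ± 8.77 (mean ± SD of 2 libraries; log2 change -0.37, SE 0.03, edgeR adjusted p = 5.1e-07), and both KDM1A shRNA libraries lay below both controls. CTGF (chromosome 6, 132269316 to 132272512, minus strand), a profibrotic ligand and the most widely used readout of YAP/TAZ activity, went the other way. Its level was 56.6 and 58.1 CPM in the controls and 82.0 and 82.9 CPM with KDM1A shRNA (log2 change 0.52, SE 0.05, edgeR adjusted p = 5.5e-07). NOV (chromosome 8, 120428686 to 120436674, plus strand), a CCN protein often described as opposing the growth effects of the other members, was near the bottom of the range in the controls, with 63 and 59 reads. In the KDM1A shRNA libraries it had 349 and 402 reads. This took it from 2.39 ± 0.0563 to 15.1 ± 0.713 CPM (log2 change 2.66, SE 0.13, edgeR adjusted p = 4.4e-10), a change that 3.89% of tested genes matched or exceeded in size in either direction.

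These shifts changed the make-up of the CCN transcripts. Of the other family members, WISP2 was scarce, with 22 and 17 control reads, and 8 and 9 with KDM1A shRNA (log2 change -1.15, SE 0.39, edgeR adjusted p = 0.022). Its call was lost in DESeq2 (adjusted p = 0.19) and without control library 1 (0.13), KDM1A shRNA library 1 (0.10) or library 2 (0.099). WISP1 had 1, 1, 0 and 0 reads and WISP3 none in any library, where a count of 0 allows up to 3 reads, or 0.112 to 0.125 CPM depending on the library. Counted as reads per base of transcript, CYR61 made up 91.5% and 91.2% of the CCN signal in the controls and 83.6% and 83.7% with KDM1A shRNA. CTGF made up 7.99% and 8.32% in the controls and 13.9% and 13.7% with KDM1A shRNA. NOV made up 0.315% and 0.330% in the controls and 2.35% and 2.45% with KDM1A shRNA. As a share of raw CCN reads, NOV had 95% Wilson intervals of 0.266% to 0.435% and 0.277% to 0.460% in the controls and 2.28% to 2.80% and 2.39% to 2.90% with KDM1A shRNA, which cover counting error only. The ratio of CYR61 to CTGF per base was 11.4 and 10.96 in the controls and 6.01 and 6.10 in the KDM1A shRNA libraries. This ratio is taken within each library, so no scaling between libraries enters it.

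**Figure D2:**
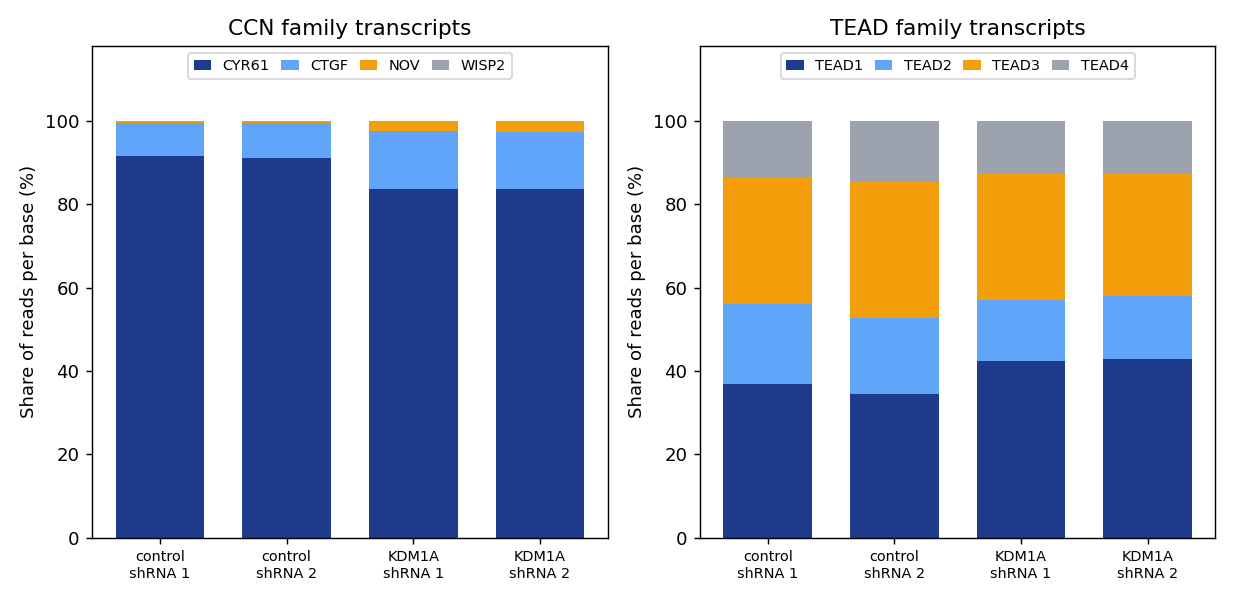
Share of reads per base of canonical transcript (%) in each of the 4 libraries, for the CCN genes (left) and the TEAD genes (right). CYR61 takes 91.2% to 91.5% of the CCN bars in the controls and 83.6% to 83.7% with KDM1A shRNA, and TEAD1 takes 34.5% to 36.98% of the TEAD bars in the controls and 42.4% to 42.8% with KDM1A shRNA.

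ANKRD1, which encodes a stress-induced ankyrin repeat protein of muscle and epithelial cells and is a standard YAP/TAZ target, moved with CTGF. It lies on chromosome 10 (92671853 to 92680844, minus strand) and stood at 191 and 174 CPM in the controls and at 249 and 265 CPM with KDM1A shRNA. The rise was 0.49 on the log2 scale (SE 0.05, edgeR adjusted p = 7.5e-07), and the lowest KDM1A shRNA library lay above the highest control. AMOTL2 (chromosome 3, 134074189 to 134094321, minus strand), a target gene whose angiomotin-like protein binds YAP and holds it back, was higher by less. Its level was 71.2 and 77.8 CPM in the controls against 82.3 and 85.8 CPM (log2 change 0.18, SE 0.05, edgeR adjusted p = 0.012). AMOTL2 no longer passed when control library 1 (adjusted p = 0.056) or KDM1A shRNA library 2 (0.15) was left out. The rises of CTGF, ANKRD1 and AMOTL2 stood beside a median log2 fold change of 0.64 over the 6 genes typical of the line. Those 6 genes ranged from -0.23 (CD44) to 1.07 (CAV1). The 4 tested genes known to be low in the line rose by 0.36 to 0.41. What part a difference in the cells has in the target rises was not tested.

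The promoter sequences of CTGF, ANKRD1, AMOTL2 and LATS2, all commonly listed as targets, are printed as a description. They were picked with their changes known, and any link between sequence and change was not tested. The 250 bases before the start site, from RefSeq's table for GRCh38.p14, were used for 7 of the 10 genes (CTGF, ANKRD1, AMOTL2, YAP1, WWTR1, LATS1 and LATS2; those of CYR61, which fell, of TEAD1 and of NOV were not analysed here) and placed on GRCh37 by exact match. Each is printed 5′ to 3′ along the gene's strand, and capitals mark GGAATG or its reverse complement CATTCC, the core of the element that TEAD proteins bind.
CTGF (chr6:132272513-132272762, minus strand): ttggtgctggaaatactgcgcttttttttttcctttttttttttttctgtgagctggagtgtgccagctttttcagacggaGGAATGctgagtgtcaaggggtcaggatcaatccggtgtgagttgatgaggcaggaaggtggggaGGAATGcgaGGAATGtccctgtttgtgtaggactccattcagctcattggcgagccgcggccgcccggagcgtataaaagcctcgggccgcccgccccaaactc
ANKRD1 (chr10:92680845-92681094, minus strand): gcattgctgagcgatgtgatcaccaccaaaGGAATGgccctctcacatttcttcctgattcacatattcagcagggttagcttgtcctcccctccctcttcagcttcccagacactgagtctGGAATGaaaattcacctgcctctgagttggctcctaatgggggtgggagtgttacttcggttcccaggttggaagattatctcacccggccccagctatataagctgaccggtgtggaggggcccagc
AMOTL2 (chr3:134093290-134093539, minus strand): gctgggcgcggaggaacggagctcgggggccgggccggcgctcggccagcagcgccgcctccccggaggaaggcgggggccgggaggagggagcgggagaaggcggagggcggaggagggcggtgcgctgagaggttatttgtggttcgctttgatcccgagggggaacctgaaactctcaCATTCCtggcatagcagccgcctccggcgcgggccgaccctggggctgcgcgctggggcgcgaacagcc
LATS2 (chr13:21635726-21635975, minus strand): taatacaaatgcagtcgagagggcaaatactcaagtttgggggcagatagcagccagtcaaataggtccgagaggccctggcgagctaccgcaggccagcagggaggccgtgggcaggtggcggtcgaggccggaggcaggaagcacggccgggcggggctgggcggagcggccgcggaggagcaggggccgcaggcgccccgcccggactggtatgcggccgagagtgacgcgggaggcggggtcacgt
The CTGF window holds 3 matches, whose first bases lie 169, 104 and 95 bases before the start. Of 35116 promoter windows of this length, 11.9% hold at least 1 match on either strand and 0.0826% hold 3 or more. The ANKRD1 window holds 2 matches, starting 220 and 128 bases before the start, as 0.940% of windows hold 2 or more. The AMOTL2 window at the canonical start holds 1 match on the opposite strand, 69 to 64 bases before the start. The YAP1 window holds 1 as well, starting at 162. AMOTL2, WWTR1 and LATS1 each have another window in the same source, away from the canonical start, and none of these holds a match. The windows at the canonical starts of WWTR1, LATS1 and LATS2 hold none. The AP-1 motif TGACTCA or its reverse complement TGAGTCA, whose first bases can coincide with the last of GGAATG, matched in none of the members' windows and in 4.20% of all windows. The CArG box of serum response factor also matched in none of the members' windows and in 1.16% of all windows. A match describes letters only, and no binding was measured.

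The coactivators changed little. YAP1 (chromosome 11, 101981178 to 102104155, plus strand) stood at 434 and 417 CPM in the controls and at 467 and 461 CPM with KDM1A shRNA. Its log2 fold change of 0.12 (SE 0.04, 95% interval 0.05 to 0.20, edgeR adjusted p = 0.0089) was called, but it no longer passed when KDM1A shRNA library 1 (adjusted p = 0.16) or library 2 (0.092) was left out. WWTR1 (chromosome 3, 149235022 to 149454501, minus strand) had 216 and 222 CPM against 221 and 229 CPM. Its groups overlapped, and the log2 fold change of 0.04 had a 95% interval of -0.05 to 0.12 (edgeR adjusted p = 0.42). Per base, YAP1 exceeded WWTR1 by 1.88 and 1.75 times in the controls and by 1.98 and 1.87 times with KDM1A shRNA, ranges that also overlap.

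TEAD1, the DNA-binding partner in the set, rose slightly while the other TEAD genes were lower. TEAD1 (chromosome 11, 12695968 to 12966284, plus strand) stood at 266 and 249.6 CPM in the controls and at 298 and 289 CPM with KDM1A shRNA (log2 change 0.19, SE 0.04, edgeR adjusted p = 0.0012). Leaving out KDM1A shRNA library 1 took its adjusted p to 0.051. TEAD2 fell from 31.1 ± 0.680 to 23.7 ± 0.198 CPM (log2 change -0.39, SE 0.07, edgeR adjusted p = 0.00020). TEAD3 (-0.15, adjusted p = 0.040) and TEAD4 (-0.22, adjusted p = 0.037) were called lower, but neither call held in DESeq2 (0.12 and 0.17), without control library 2 (0.15 and 0.14), or without KDM1A shRNA library 1 (0.062 and 0.10) or library 2 (0.38 and 0.19). TEAD3 also missed the threshold with library size alone (0.052). Per base, TEAD1 made up 36.98% and 34.5% of TEAD signal in the controls and 42.4% and 42.8% with KDM1A shRNA, and TEAD2 made up 19.0% and 18.3% against 14.7% and 15.1%. Each of the 4 proteins can pair with YAP and TAZ.

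Of the LATS kinases, LATS2 was called lower and LATS1 was not called. Whether their changes differ from each other was not tested. LATS1 (chromosome 6, 149979289 to 150039241, minus strand) had 37.9 and 36.2 CPM in the controls and 35.7 and 37.3 CPM with KDM1A shRNA. Its groups overlapped and its log2 fold change was -0.02 (95% interval -0.16 to 0.11, edgeR adjusted p = 0.79). LATS2 (chromosome 13, 21547175 to 21635725, minus strand), itself induced by YAP and TAZ as negative feedback, fell from 45.6 and 47.6 CPM to 38.3 and 39.8 CPM (log2 change -0.25, SE 0.06, edgeR adjusted p = 0.0024). Leaving out KDM1A shRNA library 1 gave a LATS2 value of -0.22 with an adjusted p of 0.051. Per base, the ratio of LATS1 to LATS2 was 0.627 and 0.573 in the controls and 0.702 and 0.705 with KDM1A shRNA.

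Ordered by level per length (TMM-scaled CPM per kilobase of canonical transcript, RPKM), the controls ran CYR61 (275 ± 3.50), ANKRD1 (102 ± 6.76), YAP1 (78.8 ± 2.18), WWTR1 (43.5 ± 0.909), TEAD1 (27.4 ± 1.21), CTGF (24.5 ± 0.447), AMOTL2 (15.3 ± 0.967), LATS2 (8.40 ± 0.257), LATS1 (5.03 ± 0.168) and NOV (0.971 ± 0.0229), as means with SD. No neighbours in that order overlapped between their 2 libraries. In the KDM1A shRNA libraries CTGF (35.3 ± 0.271 RPKM) stood above TEAD1 (31.2 ± 0.626), and NOV (6.12 ± 0.289) stood above LATS1 (4.96 ± 0.148). The rest of the order was as in the controls. Lengths come from GENCODE and may differ from the annotation behind the counts.

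**Figure D3:**
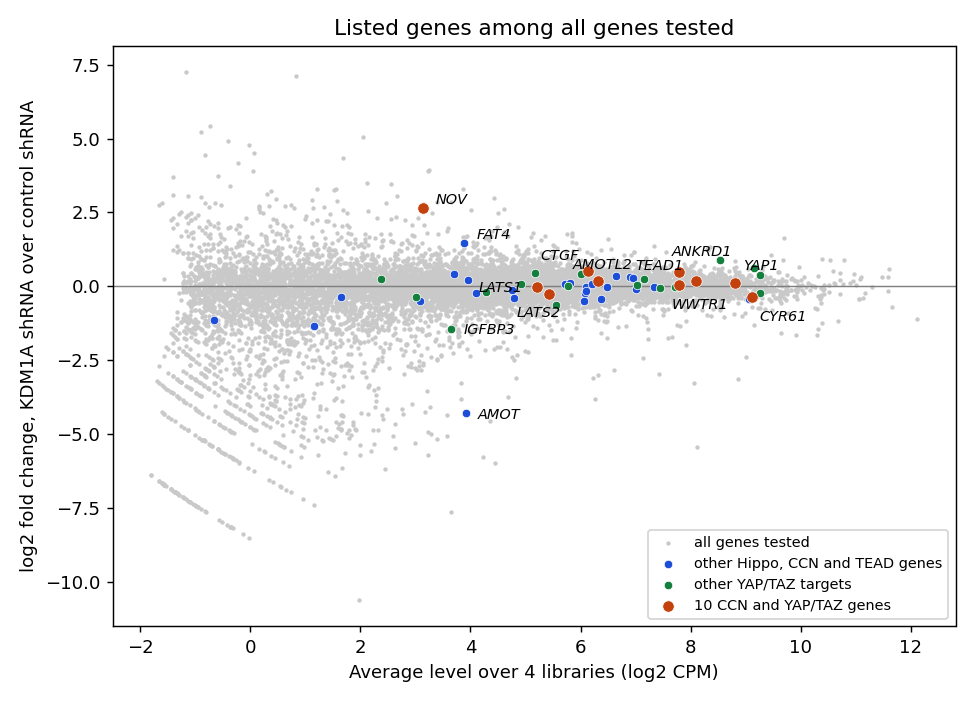
Change against level for all 14012 genes tested (grey), with the average level over 4 libraries in log2 CPM on the horizontal axis and the log2 fold change of KDM1A shRNA over control shRNA on the vertical axis. The 10 genes are orange, other Hippo, CCN and TEAD genes blue, and other YAP/TAZ targets green; NOV at 2.66 and AMOT at -4.28 stand farthest from 0 among the listed genes.

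Other genes of the pathway were read from a list of 32 with roles upstream of YAP/TAZ, in binding them, or in the CCN and TEAD families. Of the 28 that were tested, 5 were higher, 11 lower and 12 not called, a called share of 57.1% beside the 56.1% of all genes. Without control library 2, 9 were higher, and without KDM1A shRNA library 1, 7 were lower. The median log2 fold change was -0.06. AMOT, an angiomotin that binds YAP at junctions and lies on chromosome X (112017731 to 112084059), was covered by 825 and 619 control reads but only 23 and 49 with KDM1A shRNA. Its level fell from 28.2 ± 3.74 to 1.43 ± 0.664 CPM (log2 change -4.28, SE 0.18, edgeR adjusted p = 7.6e-11). With the second KDM1A shRNA library left out, the one with more AMOT reads, the change came to -4.87, and with the first left out to -3.89. The remaining 5.08% of the control level stands beside 4.99% for CDKN2A, 5.65% for MTAP and 1.70%, on 1 read, for CDKN2B, the genes lost from the parental line, and the part of that difference between the groups in the fall of AMOT was not tested. AMOTL1, the other angiomotin-like gene outside the 10, was at 72.8 and 65.2 CPM in the controls and 64.6 and 70.1 CPM with KDM1A shRNA, with overlapping groups (edgeR adjusted p = 0.64), and was chosen after its values were seen.

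Several upstream genes changed by smaller amounts. FAT4, an atypical cadherin that signals into the pathway, rose from 9.11 and 6.43 CPM to 21.6 and 21.8 CPM (log2 change 1.47, SE 0.12, edgeR adjusted p = 1.1e-07), while DCHS1, a cadherin that binds it, fell from 3.25 and 2.89 CPM to 1.09 and 1.32 CPM (-1.35). The kinase MAP4K4, which can phosphorylate LATS kinases, fell from 617 ± 22.2 to 457 ± 9.47 CPM (-0.43, SE 0.04). The scaffold WWC1, also called KIBRA, fell (-0.49, SE 0.05), as did the adaptor SAV1 (-0.41, SE 0.05) and the tumour suppressor NF2 (-0.50, SE 0.11). LIMD1 (0.35, SE 0.05) and JUB (0.31, SE 0.05), LIM-domain proteins that bind LATS kinases, and the kinase TAOK3 (0.30, SE 0.04) rose. The core kinases STK4 (-0.01, 95% interval -0.10 to 0.08) and STK3 (-0.11, -0.26 to 0.04), known as MST1 and MST2, did not pass the test. The fixed rule for naming genes took AMOT, FAT4, MAP4K4, WWC1, SAV1 and LIMD1; the others here were chosen after their values were seen.

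Other genes commonly used as YAP/TAZ targets split in direction, as CTGF and CYR61 did. Of 17 listed, all tested, 6 were higher, 5 lower and 6 not called, a called share of 64.7% beside the 56.1% of all genes, with a median log2 fold change of 0.05. DESeq2, and the fit without KDM1A shRNA library 1, called 3 lower. F3, the tissue factor that starts coagulation, rose from 264 and 254 CPM to 480 and 479 CPM (log2 change 0.89, SE 0.04, edgeR adjusted p = 6.8e-11). AXL, a receptor tyrosine kinase that also stands among the genes typical of the line, rose from 448 ± 2.09 to 691 ± 8.77 CPM (0.62, SE 0.03). The exchange factor DOCK5 (0.42, SE 0.05) and the membrane repair protein MYOF (0.37, SE 0.05) rose as well. IGFBP3, a binding protein of insulin-like growth factors, fell from 18.1 ± 0.00681 to 6.69 ± 0.728 CPM (log2 change -1.43, SE 0.10, edgeR adjusted p = 3.1e-08). GADD45A, a stress-response gene, fell from 57.1 ± 1.41 to 36.8 ± 0.878 CPM (-0.63, SE 0.06). None of the 6 higher targets reached 2-fold, and IGFBP3 was the only lower target that did. PTPN14, which stands in both lists and was also chosen after its values were seen, was at 209.9 ± 15.03 CPM in the controls and 208 ± 2.33 CPM with KDM1A shRNA.

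**Figure D4:**
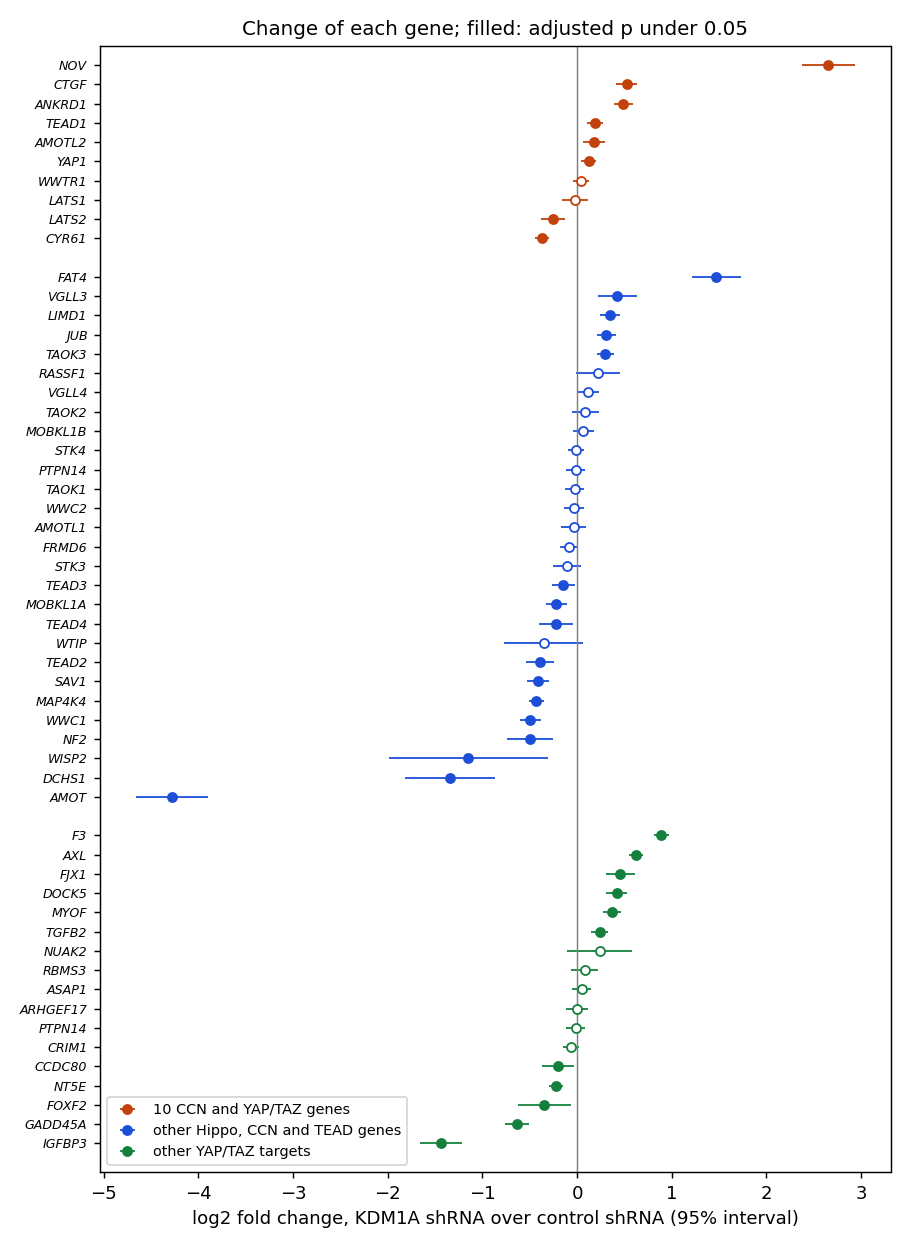
Log2 fold change of KDM1A shRNA over control shRNA (horizontal axis) with its 95% interval for the 10 genes (orange), 28 tested pathway genes (blue) and 17 targets (green); filled points have an edgeR adjusted p under 0.05. Each list holds genes on both sides of 0, from -4.28 (AMOT) to 2.66 (NOV).

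Among the 10081 genes averaging at least 3 on the log2 CPM scale, those whose pattern over the 4 libraries lay nearest to CYR61 or CTGF (Euclidean distance of log2 CPM centred on each gene's mean) were named as a description. For CYR61 they were TRAF1, SMAD4 and TRIB2, at distances of 0.012 to 0.014 and with log2 fold changes of -0.38 to -0.36. For CTGF they were PTRF, CD97 and DPY19L4, at 0.0089 to 0.016 and with 0.51 to 0.53. With 4 libraries in 2 groups, this likeness reflects mainly the size of the difference between the groups.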

How the data were processed

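RNA from 2 control shRNA and 2 KDM1A shRNA libraries was sequenced as single reads after TruSeq total RNA preparation, per the labels. The authors deposited raw read counts per gene symbol, not normalized. The submitters' processing notes name hg19, HTSeq, TopHat2 2.0.8b and CASAVA 1.8.2. For the counting no strand setting is given in the sources used here, so overlapping genes on opposite strands cannot be told apart. In GENCODE v44 (GRCh37), genes on the opposite strand overlap exons of CTGF (278 bases), NOV (204), YAP1 (639), WWTR1 (572) and LATS1 (253). The 5 HTSeq summary lines were left out; genes held 59.0% to 61.1% of the lines' total.

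Counts were fitted over the whole table with edgeR 4.0.16 in R 4.3.3 (TMM, filterByExpr with minimum count 10 and total 15, quasi-likelihood F-test, group as the only term), with Benjamini-Hochberg adjustment over 14012 genes and a threshold of 0.05. SE was derived from the F statistic, and intervals are at 95%. The fit was tested on simulated data of 13828 genes, with 49 or 50 genes changed at each size. It recovered 66% of changes of 1.25-fold, 84% of 1.5-fold, 88% of 2-fold and 100% of 4-fold. Of 178 calls, 10 were false. The simulation changed a far smaller share of genes than the 56.1% called in the real data, so these rates may differ there. By these recovery rates, changes of up to 2-fold can go uncalled. Exact permutation of 4 libraries has a smallest two-sided p of 0.333 and was not used. Replicate libraries were not repeats of 1 count table within sampling noise (chi-square per degree of freedom 4.13 and 1.62). Members and lists were chosen with earlier results of these data known. Named genes were KDM1A, the 10 members, the other CCN and TEAD genes, per list the 6 with the smallest p and any changed by 4-fold or more, the cell type markers and the nearest patterns (those of NOV are not reported here). Gene positions and canonical transcript lengths are from GENCODE, under the current symbol where the tables use an older one. Alternatives were RLE, upper quartile or library size alone, minimum filters of 1 read summed over libraries or 5 CPM on average, limma-voom 3.58.1, DESeq2 1.42.0, the replicate number as a block, and each library left out in turn.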

Additional observations from a re-analysis of the deposited data

How the results depend on the processing

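CYR61, CTGF, NOV and ANKRD1 kept their direction and their calls under every alternative run, with log2 fold changes of -0.39 to -0.35, 0.50 to 0.54, 2.61 to 2.70 and 0.42 to 0.56. The count of the 10 genes called higher was 6, or 4 to 6 with a library left out, and of those called lower 2, or 1 to 2. LATS1, not called, ranged from -0.055 to 0.014 with a library left out and was above 0 without control library 1 or KDM1A shRNA library 1. The pathway list had 5 genes higher and 11 lower, or 5 to 9 and 7 to 13 with a library left out: 9 were higher without control library 2, and 7 lower without KDM1A shRNA library 1. The target list had 6 higher and 5 lower, or 6 to 8 and 3 to 5 with a library left out. DESeq2 called 3 targets lower, as did the fit without KDM1A shRNA library 1; the cause was not tested. Over all genes, 3828 were higher and 4033 lower, or 2832 to 4041 and 3146 to 4168 with a library left out, and 3000 and 3116 in DESeq2. KDM1A ranged from -2.86 to -2.76. The same alternatives for single genes outside the 10 were added after seeing the data. The replicate numbers share only a number: deviations of same-numbered libraries correlated with r = 0.015 over 14012 genes, and with the replicate block 3978 genes were higher and 4164 lower, with 6 and 2 of the 10 genes as before. Where an arm keeps 1 library, that library is assumed to vary like those of the other group. At these depths a 0 allows up to 3 reads, so WISP1 and WISP3 were not detectable beyond that.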
